A study of Mus musculus with 11 samples.

Results

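Tight junctions seal the space between neighbouring cells, and 8 of their genes were followed here through the stromal vascular cells of perigonadal fat (pgWAT), that is, the cells of this white fat depot other than adipocytes. The members were taken as the rows of the count matrix whose gene symbol was on a given list of 8: the claudin genes *Cldn5*, *Cldn11* and *Cldn1*, the occludin gene *Ocln*, the adhesion molecules *Esam*, *Jam2* and *F11r*, and the scaffold gene *Tjp1*. Of these, 7 had a row among the 23507 genes of the matrix. *Ocln* had none and was not analysed here.

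The cells came from adult Pdgfrb-GFP mice on a C57BL6/J background, in which a transgene marks cells that use the *Pdgfrb* promoter with green fluorescent protein. No mouse was treated. The 3 male mice were numbered 1, 4 and 8 and the 4 female mouse labels were 2, 3, 5 and 6/7, the last covering animals 6 and 7 together. Single cells were sorted by the reporter (PDGFRB), by CD31, which endothelial cells carry on their surface, and for mouse 2 also by DPP4, into 11 plates and sequenced with Smart-seq2, a full-length method without molecular identifiers.

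The matrix held 3261 cells, 1177 male and 2084 female, with 149931 to 3548334 reads a cell and a median of 629323. Ribosomal RNA took a varying part of these reads, and the median share of reads outside it ranged from 31.8% to 69.6% between mice, so levels are given as CPM, counts scaled to the same total of reads outside ribosomal RNA. Clusters of cells were named from marker genes, as 2250 adipose stem cells (ASC-like), 558 blood endothelial cells (EC-like), 137 macrophage-like, 60 pericyte-like, 22 lymphatic EC-like, 41 vascular smooth muscle (VSMC-like) and 19 epithelial-like cells. The remaining 174 cells stayed unnamed, among them 124 with EC markers whose leading genes were those of adipocytes. Classes were built from these same counts with the members left out of the clustering genes, and 3258 of the 3261 cells kept their class when the members were put back, so levels by class are a description without a test.

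Claudins are membrane proteins whose loops meet those of the facing cell and set which ions and solutes pass between cells. The adhesion molecules ESAM, JAM-B (*Jam2*) and JAM-A (*F11r*) are immunoglobulin-domain proteins of the same contact, and ZO-1 (*Tjp1*) ties the membrane proteins to the actin skeleton. CLDN5 is the well-known claudin of endothelium, including the blood-brain barrier, whereas CLDN11 is best known from myelin and from the junctions between Sertoli cells of the testis.

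By position in GENCODE vM21, on the mm10 build, *Cldn5* (ENSMUSG00000041378) lies at chr16:18776847-18778262 and *Cldn11* (ENSMUSG00000037625) at chr3:31149920-31164324, both on the plus strand. The levels turned on these claudins. The 250 bases before the start of each gene are shown from RefSeq (GRCm38.p6), at chr16:18776597-18776846 and chr3:31149670-31149919, plus strand. The capitals mark CCAAT boxes and GC boxes (GGGCGG) found on either strand.
Cldn5: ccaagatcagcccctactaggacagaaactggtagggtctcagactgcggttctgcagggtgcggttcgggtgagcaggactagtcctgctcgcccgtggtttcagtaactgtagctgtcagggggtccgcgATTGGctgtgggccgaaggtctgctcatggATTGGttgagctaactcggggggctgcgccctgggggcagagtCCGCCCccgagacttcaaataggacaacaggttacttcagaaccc
Cldn11: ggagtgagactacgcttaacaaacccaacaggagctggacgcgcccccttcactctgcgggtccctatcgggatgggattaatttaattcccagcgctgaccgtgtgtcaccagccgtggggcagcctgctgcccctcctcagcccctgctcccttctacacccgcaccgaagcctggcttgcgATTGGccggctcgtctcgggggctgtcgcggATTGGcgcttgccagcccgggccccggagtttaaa
Both windows held 2 matches to CCAAT, which 33.9% of the 32851 promoter windows in the RefSeq table held at least once. The *Cldn5* window held 1 match to GGGCGG and the *Cldn11* window 0, against 32.7% of all windows with a match. TATAAA was in neither (12.4% of all windows). GC content was 59.6% for *Cldn5* and 63.6% for *Cldn11*, with 12 and 19 CpG pairs.

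*Cldn5* was the most abundant member in EC-like cells in every mouse measured. Its level there was 3124 CPM in mouse 1, 9227 in mouse 2, 6191 in mouse 5, 7331 in mouse 6/7 and 5128 in mouse 8 (mean 6200 ± 2294, SD, n = 5 mice). In every mouse all of the EC-like cells held at least 10 CPM of it. ASC-like cells lay at 0.141 to 3.75 CPM over 7 mice, and the ranges of the EC-like and ASC-like groups did not overlap.

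Between these ends the order for *Cldn5* was pericyte-like cells (1326 CPM in mouse 1 and 5809 in mouse 2), macrophage-like cells (21.4 in mouse 1 and 3.20 in mouse 5), VSMC-like cells (10.6 in mouse 1) and epithelial-like cells (1.30 in mouse 1). Pericyte-like and EC-like ranges overlapped, as did those of VSMC-like and macrophage-like cells, and the lowest macrophage-like value lay inside the ASC-like range. Both pericyte-like values lay above both macrophage-like ones. In this order the other neighbours could not be compared by spread, since VSMC-like and epithelial-like cells reached 10 cells in 1 mouse only.

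**Figure D1:**
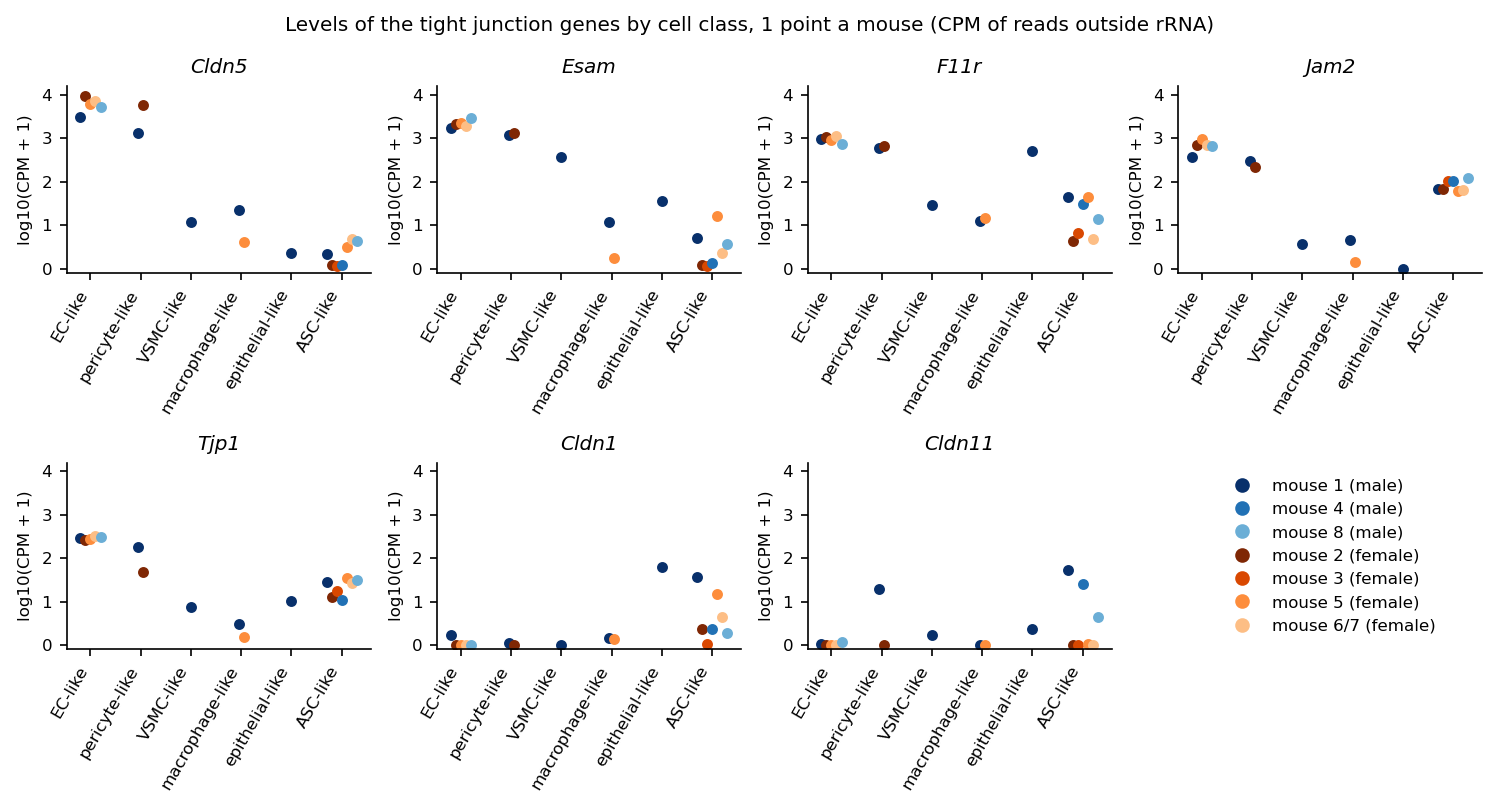
Levels of the 7 measured members in each cell class, as log10(CPM + 1) on the y axis, with 1 point for each mouse that had at least 10 cells of the class (blue, male; orange, female). *Cldn5*, *Esam*, *F11r*, *Jam2* and *Tjp1* are highest in EC-like cells in each of the 5 mice that had them, whereas *Cldn11* lies above 1 CPM in ASC-like cells of the male mice and in pericyte-like and epithelial-like cells of mouse 1.

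The adhesion molecules followed *Cldn5* in EC-like cells. *Esam* was at 1749, 2119, 2200, 1950 and 2942 CPM in mice 1, 2, 5, 6/7 and 8 (mean 2192 ± 453, SD, n = 5). *F11r* was at 940, 1077, 886, 1150 and 745 CPM in the same order (mean 959 ± 159). *Jam2* was at 376, 695, 968, 698 and 647 CPM (mean 677 ± 210). The EC-like range of each of these 3 genes lay above its ASC-like range, which for *Jam2* was 58.3 to 119.7 CPM.

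*Tjp1* was at 287, 254, 275, 330 and 310 CPM in EC-like cells of these mice (mean 291, n = 5), between 254 and 330. *Cldn1* and *Cldn11* were at or near 0 there, with highest values of 0.701 and 0.162 CPM. No EC-like cell of 558 held 30 or more *Cldn11* reads, which allows a share of up to 0.659% (exact 95% interval, counting error only).

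Long transcripts collect more reads, so levels of different genes are compared per kilobase of exon over all cells of a class. In EC-like cells *Cldn5* was at 5267 CPM per kb, *Esam* at 716, *F11r* at 392, *Jam2* at 108 and *Tjp1* at 35.5. Of the 3 lists of tight junction genes kept beside the members, 15 of 31 claudins, 16 of 17 other membrane proteins and 26 of 27 scaffold proteins had a row. The list genes that came next in EC-like cells were *Cldn15* at 202 CPM per kb, *Afdn*, the afadin scaffold, at 66.7 and *Amotl2*, angiomotin-like 2, at 61.5. In ASC-like cells list genes led, with *Amotl2* at 54.6, *Cldn15* at 45.9, *Cldnd1* at 23.6 and *Jam3* at 22.2 CPM per kb, ahead of *Jam2*, the highest member there, at 13.0.

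**Figure D2:**
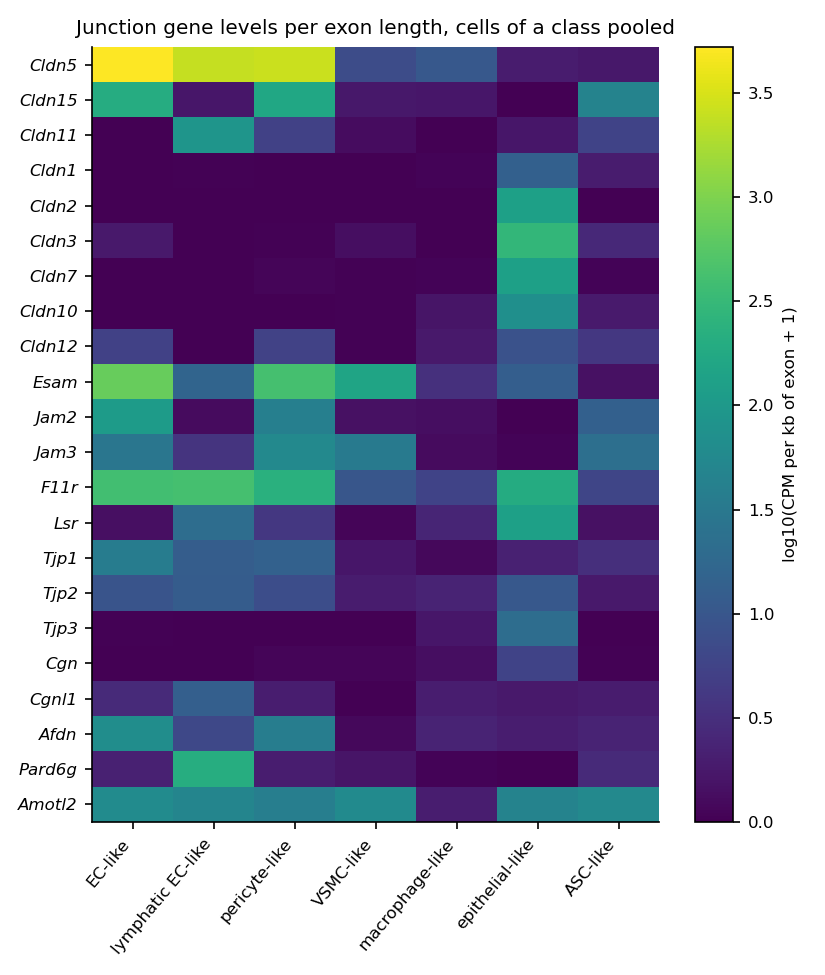
Levels of 22 tight junction genes in 7 cell classes, all cells of a class pooled, coloured by log10(CPM per kb of exon + 1). The EC-like column is brightest at *Cldn5* (5267 CPM per kb) and the epithelial-like column at *Cldn3* (286 CPM per kb).

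The 19 epithelial-like cells, all of male mouse 1, had another claudin set. *Cldn3* was at 286, *Cldn7* at 129, *Cldn2* at 128 and *Cldn10* at 69.7 CPM per kb, beside *Lsr*, the angulin of 3-cell contacts, at 131. Among the members *F11r* was at 510 CPM and *Cldn1* at 62.8 CPM, the highest class level of *Cldn1*, while *Jam2* had no read.

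The 22 lymphatic EC-like cells shared *Cldn5* and *F11r* with blood EC-like cells but were low in the other adhesion molecules. *Cldn5* was at 2439 CPM per kb and *F11r* at 423. *Esam* was at 14.6 CPM per kb, against 716 in EC-like cells, and *Jam2* at 0.298, against 108. The polarity gene *Pard6g* reached 204 CPM per kb, against 1.2 in EC-like cells. *Cldn11* was at 86.7 CPM per kb, its highest pooled class level, against 4.60 in ASC-like cells. All of its reads here lay in 2 of the 22 cells. No mouse gave 10 lymphatic EC-like cells, so these values have no spread over mice.

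Mural cells wrap the outside of vessels, pericytes on capillaries and VSMC on larger vessels. In mouse 1 pericyte-like cells held *Cldn5* at 42.4%, *Esam* at 65.9%, *F11r* at 62.9%, *Jam2* at 78.6% and *Tjp1* at 63.8% of the EC-like level of the same mouse. The 5 EC markers *Pecam1*, *Cdh5*, *Kdr*, *Tie1* and *Ptprb* were in these cells at 29.9% to 52.4% of it. In mouse 2 the figures were 63.0% for *Cldn5*, 60.7% for *Esam*, 61.1% for *F11r*, 30.6% for *Jam2* and 18.6% for *Tjp1*, with the EC markers at 41.6% to 87.8%. In mouse 2 *Jam2* and *Tjp1* thus lay below the range of the EC markers, while in mouse 1 *Cldn5* lay within it and the other 4 members above it. The part that material of EC in these wells had in these levels was not tested.

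The pericyte-like cells of mouse 1 were therefore divided, after their values had been seen, at a summed level of 100 CPM of the 5 EC markers. In the 15 cells under it *Cldn5* was at 10.004 CPM, against 1673 in the 29 cells at or over it. *F11r* was at 61.9 against 731 CPM, and *Jam2* at 21.9 against 368. *Esam* was at 758 CPM in the cells under the limit against 1256 in the others. *Tjp1* was at 92.5 CPM against 207, with at least 100 CPM in 4 of the 15 cells under the limit. Of the 15 cells, 12 held at least 10 CPM of *Esam* and 7 at least 100, and the pericyte markers *Kcnj8*, *Abcc9* and *Rgs5* were at 3336, 6560 and 4924 CPM in them. In mouse 2, 1 pericyte-like cell lay under the same limit. It held *Cldn5* at 275.5, *Tjp1* at 350 and *Esam* at 2455 CPM, and *Jam2* and *F11r* at 4.98 CPM each.

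In VSMC-like cells *Esam* stood apart from the other members. In the 38 such cells of mouse 1 it was at 363 CPM, 20.8% of the EC-like level, and 81.6% of them held a read after each cell was thinned to 50000 reads outside ribosomal RNA. *Cldn5* was at 0.339%, *F11r* at 2.98%, *Jam2* at 0.733% and *Tjp1* at 2.22% of their EC-like levels, and the 5 EC markers at 0.338% to 1.29%. In the 34 cells under 100 CPM of EC markers *Esam* was still at 364 CPM, and 17 of them held at least 100. These VSMC-like values come from 1 mouse, and no mural value has a test.

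**Figure D3:**
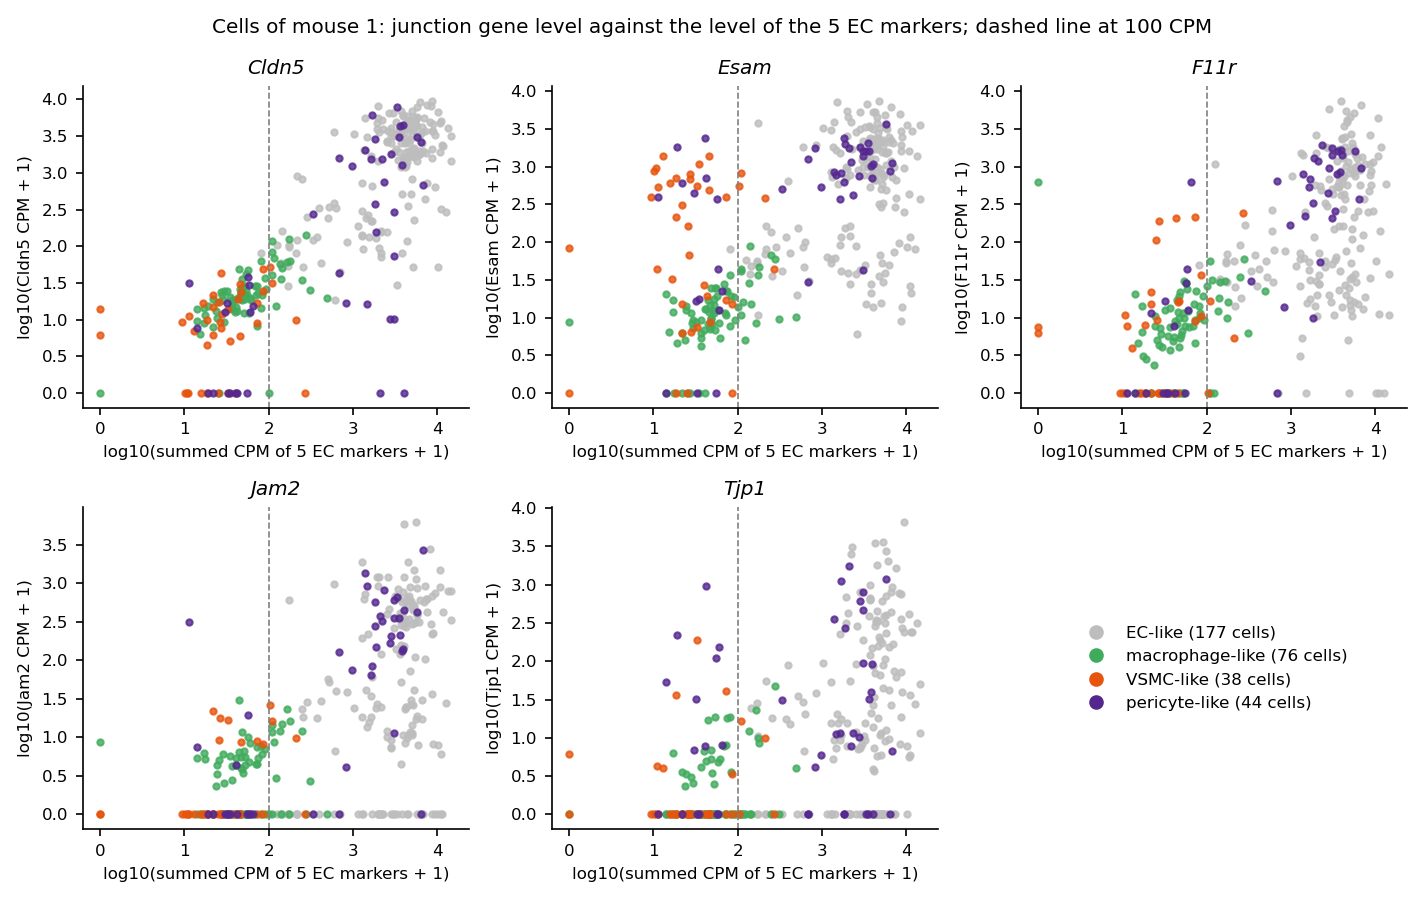
Each point is 1 cell of mouse 1, with the summed level of 5 EC markers on the x axis and the level of a member on the y axis, both as log10(CPM + 1), coloured by class. Left of the dashed line at 100 CPM, *Cldn5* stays low in pericyte-like and VSMC-like cells, while *Esam* reaches 100 CPM or more in 7 of 15 pericyte-like and 17 of 34 VSMC-like cells.

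Macrophage-like cells carried the members at trace levels, although the sort of the study selected CD45-negative cells. In mouse 1 *Cldn5* was at 21.4 CPM, and 60.5% of 76 cells held a read. This was 0.686% of the EC-like level, and *Esam* (0.606%), *Tjp1* (0.726%), *Jam2* (0.913%), *F11r* (1.25%) and the EC markers (0.744% to 2.78%) stood at similar fractions. In mouse 5 *Cldn5* was at 3.20 CPM in 61 cells, 0.0516% of the EC-like level. *Cldn11* had no read in 137 macrophage-like cells. In mouse 5 the fractions were less alike, with *F11r* at 1.53%, and 3 of 17 cells without a read of the 5 EC markers held a *Cldn5* read. Where these reads came from was not tested.

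Between male and female EC-like cells no member was called. Of 5 members tested in 2 male and 3 female mice, 0 were called at an adjusted p under 0.05 and a fold over 2.6, against 0.0494% of all 8101 genes (edgeR quasi-likelihood test, Benjamini-Hochberg adjustment), and none had an unadjusted p under 0.05. The male minus female difference in *Cldn5* was −0.62 on the log2 scale (SE 0.45, adjusted p = 0.734), in *Esam* 0.43 (SE 0.44, adjusted p = 0.825) and in *Jam2* −0.36 (SE 0.47, adjusted p = 0.865). *F11r* differed by −0.08 (SE 0.40) and *Tjp1* by 0.30 (SE 0.41), and all 5 differences had errors of 0.40 to 0.47. Mouse 1 stood apart here, since 171 of its 177 EC-like cells formed most of cluster 8 (178 cells, 172 of them male), while cluster 1 held 346 female and 34 male cells. Without mouse 1 the males were mouse 8 alone, with 29 EC-like cells, so sex, animal and plate could not be told apart there.

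The sort gave a grouping that did not rest on the clusters. CD31-sorted cells of mice 1 and 2 were summed, whatever their class, and compared with PDGFRB-sorted cells of mice 1, 2, 3, 4, 5 and 6/7, with sex in the model. In such sums more cells of a type and more RNA per cell cannot be told apart. *Jam2* was at 212 and 605 CPM in the CD31 sums, and at 79.2, 66.7, 102.6, 100.3, 181.8 and 76.5 CPM in the PDGFRB sums, so that the groups did not overlap. *Tjp1* was at 154 and 226 CPM against 39.4, 11.9, 16.2, 9.87, 78.3 and 23.4 CPM, again without overlap. The same held for *F11r*, at 571 and 999 CPM against at most 187, and for *Esam*, at 974 and 1959 CPM against at most 362. It held for *Cldn5* too, at 1767 and 8291 CPM against at most 1056. How many of all genes separated in this way was not counted.

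Both genes passed the test, *Jam2* with a log2 difference of 1.88 (SE 0.42, edgeR quasi-likelihood test, adjusted p = 0.0309) and *Tjp1* with 2.67 (SE 0.66, adjusted p = 0.0418). These were 2 of the 5 members tested beside *Cldn5*, against 10.3% of 12986 genes called in either direction. *F11r* differed by 3.81 (SE 1.34, adjusted p = 0.109), *Esam* by 4.29 (SE 2.11, adjusted p = 0.228) and *Cldn11* by −5.71 (SE 4.05, adjusted p = 0.400). *Cldn5*, a known marker of the cells that CD31 selects, is given by its levels alone, at 1767 and 8291 CPM in the CD31 sums.

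The PDGFRB sum of mouse 5 stood apart, with 18.2% EC-like and 24.1% macrophage-like cells, *Cldn5* at 1056 and *Esam* at 362 CPM. In the PDGFRB sums of the other mice *Cldn5* ranged from 0.141 to 127 CPM, with 0% to 0.872% EC-like cells. Without mouse 5, 5 members were called. With mouse as a block, 0 members and 0 genes were called, although 2284 genes had an unadjusted p under 0.05 (edgeR quasi-likelihood test; *Jam2* 2.17, adjusted p = 0.237, and *Tjp1* 2.98, adjusted p = 0.206), and 0 members were called without mouse 2, mouse 3 or mouse 6/7. Without mouse 1 or without mouse 4 *Jam2* was the 1 member called.

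Beyond the members, the list genes called in this comparison were *Afdn*, higher in the CD31 sort by 4.19 on the log2 scale (SE 0.77, adjusted p = 0.0169), and *Cldn15*, higher by 1.56 (SE 0.30, adjusted p = 0.0187). Lower there were *Magi2*, a scaffold gene, at −4.86 (SE 1.07, adjusted p = 0.0291), *Ildr2*, an angulin, at −2.65 (SE 0.67, adjusted p = 0.0451) and *Clmp*, an adhesion molecule, at −2.64 (SE 0.67, adjusted p = 0.0451). Of the claudins 1 of 9 tested was called, of the other membrane proteins 3 of 7 and of the scaffold proteins 3 of 20, members included, beside 10.3% of all genes. With mouse as a block none of these calls was left. The median log2 difference was −0.80, −0.10 and 0.36 in these lists, and 0.0044 over all genes tested.

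The members were then followed in ASC-like cells, where *Cldn11* was found in some mice and nearly absent from others. Its level was 53.4 CPM in mouse 1, 24.6 in mouse 4 and 3.53 in mouse 8, the males. In the females there were 3 reads in all, 1 in mouse 2 and 2 in mouse 5, and none in mouse 3 or mouse 6/7, where 3 reads would be 0.0283 and 0.0241 CPM. The groups did not overlap. *Cldn11* was picked because of this contrast, so its difference has no test here. Of the other 3 members tested between the sexes in ASC-like cells 0 were called, against 2.23% of 11820 genes, and none had an unadjusted p under 0.05: *Jam2* differed by 0.72 (SE 0.34, edgeR quasi-likelihood test, adjusted p = 0.286), *F11r* by 1.29 (SE 0.83, adjusted p = 0.415), and *Tjp1* had an adjusted p of 0.685. Mouse 5 decided this count, since *F11r* was called without it (2.96, adjusted p = 0.0185). With *Cldn11* left out, no gene of the 3 lists was called between the sexes in ASC-like or EC-like cells.

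Few cells carried the *Cldn11* reads. Counted per cell, 13 of 244 ASC-like cells of mouse 1 held 30 or more reads, as did 12 of 363 in mouse 4 and 1 of 161 in mouse 8. This was 5.33%, 3.31% and 0.621% of the cells by mouse. Pooled it was 3.39% of 768 male ASC-like cells (exact 95% interval 2.22% to 4.92%). That interval covers counting error only and not the spread between mice. These 26 cells held 96.9% of the 8156 male reads. The 10 cells with most reads alone held 79.5%. None of 1482 female ASC-like cells reached 30 reads, which allows a share of up to 0.249% (exact interval over pooled cells, counting error only). The limit of 30 was set after the values were seen, within a gap: the lowest of the 26 cells held 34 reads and the highest of the others 10.

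**Figure D4:**
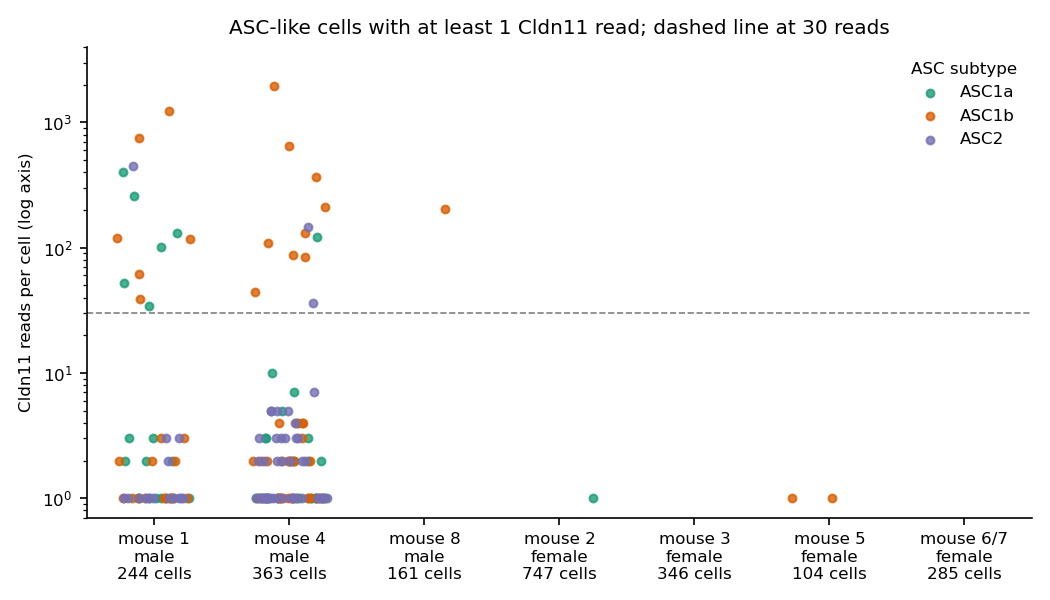
*Cldn11* reads of each ASC-like cell with at least 1 read (y axis, log scale), by mouse and coloured by ASC subtype. In the male mice 26 cells lie above the dashed line at 30 reads, between 34 and 1957 reads, and no female cell does.

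Below the gap the reads followed the plate. On plate 131, the only one of mouse 4, 97 cells (27.6% of those under 30 reads) held 1 to 10 *Cldn11* reads, and on plate 172, of mouse 1, 51 cells (15.5%) held 1 to 3. On each of the other 9 plates 0 to 2 cells did. These 2 plates also held 26 of the 29 cells of any class with 30 or more reads. Whether the low reads came from the cells that held them was not tested.

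The 26 cells were not spread evenly over ASC-like cells. Of them 25 lay in cluster 9, which held 145 cells, and 1 in cluster 12. The 25 were 17.2% of cluster 9 (exact 95% interval 11.5% to 24.4%, over pooled cells and for counting error only). The other mainly male clusters 4 and 7, with 322 and 191 cells, had none. Within cluster 9 the share was 19.0% in mouse 1, 18.8% in mouse 4 and 5.88%, 1 of 17 cells, in mouse 8. The clustering was made without *Cldn11*. The leading genes of cluster 9 were *Angpt4*, *Fmod*, *Chrdl1* and *Cldn11* itself, and 94 of its 144 male cells scored as ASC1b.

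ASC fall into 3 described subtypes, scored here within each mouse from marker genes that include no tight junction gene: ASC1a (*Col15a1*, *G0s2*, *Cxcl14*), ASC1b (*Clec11a*, *Fmo2*, *F3*, *Gdf10*) and the DPP4-positive ASC2 (*Dpp4*, *Cd55*, *Arl4d*, *Pi16*). Of 2250 cells, 500 lay close to a boundary between subtypes. Cells with 30 or more *Cldn11* reads were 16 of 236 male ASC1b cells (6.78%), 7 of 275 ASC1a cells (2.55%) and 3 of 257 ASC2 cells (1.17%). The mice differed in this. In mouse 1 they were 6 of 70 ASC1b cells (8.57%) and 6 of 84 ASC1a cells (7.14%), with overlapping intervals, and in mouse 4 they were 9 of 125 (7.20%) and 1 of 124 (0.806%).

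**Figure D5:**
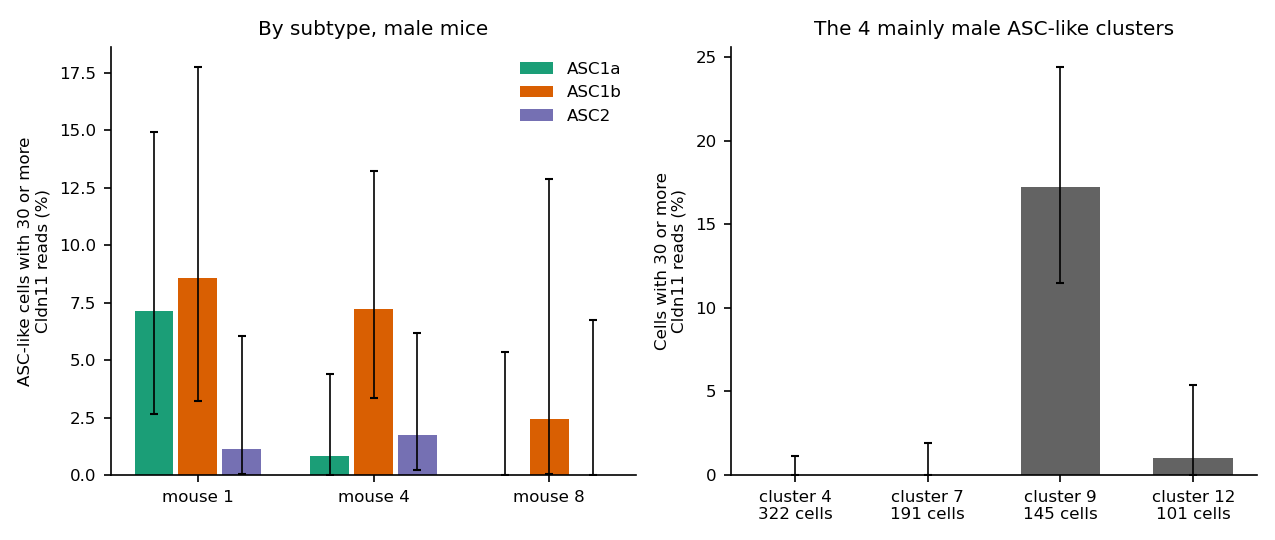
Share of cells with 30 or more *Cldn11* reads, in percent, for the 3 ASC subtypes in each male mouse (left) and for the mainly male ASC-like clusters (right). Error bars are exact 95% intervals for counting error only, and the clusters pool cells of different mice. Cluster 9 stands at 17.2%, cluster 12 at 0.990% and clusters 4 and 7 at 0%.

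Summed by mouse and subtype, *Cldn11* was at 109 CPM in ASC1b, 42.1 in ASC1a and 17.8 in ASC2 cells of mouse 1. In mouse 4 it was at 54.8 CPM in ASC1b, 3.20 in ASC1a and 5.87 in ASC2. In mouse 8 it was at 13.2 CPM in ASC1b, from 1 cell, with no read in the others. ASC1b was thus the highest subtype in 3 of 3 male mice, while ASC1a and ASC2 changed places between mice 1 and 4. Single cells weighed on these sums, however. Cells with 1230 and 757 reads held most of the 2347 ASC1b reads of mouse 1. In mouse 4, 1 cell held 1957 of the 3700 ASC1b reads.

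*Cldn11* was chosen with its levels in the subtypes known, so its subtype differences are given without a test. Of the other 3 members tested (edgeR quasi-likelihood test with mouse as a block), 0 were called in each contrast, against 3.44% of 11146 genes between ASC2 and ASC1a, 2.93% between ASC2 and ASC1b and 0.215% between ASC1b and ASC1a. An unadjusted p under 0.05 was found for *Jam2* between ASC2 and either other subtype, and for *F11r* between ASC1b and ASC1a.

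*Jam2* was the member most evenly carried by ASC-like cells. It was at 67.1, 65.8, 102.6, 100.6, 58.3, 61.9 and 119.7 CPM in mice 1, 2, 3, 4, 5, 6/7 and 8, and between 39.0% and 54.8% of the cells of a mouse held at least 10 CPM. By subtype it was at 84.0 CPM in ASC1a, 78.9 in ASC1b and 32.9 in ASC2 of mouse 2. In mouse 5 these were 81.5, 79.9 and 18.6 CPM. In mouse 8 the order was the opposite, 89.7, 127 and 149.5 CPM. ASC2 was the lowest of the 3 subtypes in 6 of 7 mice, all but mouse 8. The difference did not pass the test, at −0.66 for ASC2 minus ASC1a (SE 0.23, edgeR quasi-likelihood test, adjusted p = 0.0976) and −0.66 for ASC2 minus ASC1b (SE 0.23, adjusted p = 0.102).

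In mouse 2 the DPP4 sort separated such cells by a surface protein. Among ASC-like cells, *Jam2* was at 50.4 CPM on the plate sorted as DPP4-positive, where 37.5% of 379 cells held a read, and at 79.0 CPM on the plate sorted as DPP4-negative, where 56.3% of 368 did. *F11r* was at 0.845 and 5.25 CPM, *Tjp1* at 10.8 and 12.9, and *Cldn1* at 2.24 and 0.624. With 1 plate of 1 mouse on each side there is no test, and plate and sort cannot be told apart. The column names of the DPP4-positive plate resemble those of PDGFRB-negative sorts while its label says PDGFRB-positive, so the plates may differ in that gate too.

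*Cldn1*, a claudin of epidermis and other epithelia, was rare in ASC-like cells but was higher in ASC2 than in ASC1a in 7 of 7 mice. Its ASC2 levels were 6.21, 3.17, 0.171, 3.73, 3.28, 7.79 and 2.09 CPM in mice 1, 2, 3, 4, 5, 6/7 and 8, and its ASC1a levels were at most 0.324 CPM. The ASC2 levels rested on few cells. After thinning, 9 of 261 ASC2 cells held a read in mouse 2, and 1 to 4 cells did in each other mouse. In mouse 3 the ASC2 sum held 6 reads. *Cldn1* had too few counts to enter the test, and its ASC1a sums held few reads or none, so the difference is given as levels.

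ASC1b did not give a stable *Cldn1* value, because single cells set it. It was at 110.7 CPM in mouse 1 and 40.4 in mouse 5, but at 0 to 1.85 CPM in the other mice. In mouse 1, 1 cell held 2381 *Cldn1* reads, 93.6% of those of its ASC-like cells, and this cell also held 2808 reads of *Upk3b* and 980 of *Msln*, both markers of mesothelium, the lining of the abdominal cavity. In mouse 5, 1 cell held 410 reads, with no read of either marker.

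*F11r* in ASC-like cells was likewise carried by few cells. It was at 43.1 CPM in mouse 1, 3.22 in mouse 2, 5.72 in mouse 3, 29.8 in mouse 4, 44.4 in mouse 5, 3.82 in mouse 6/7 and 13.1 in mouse 8, and 1.87% to 16.3% of the cells of a mouse held at least 10 CPM. ASC1b minus ASC1a was 1.97 on the log2 scale (SE 0.85, edgeR quasi-likelihood test, adjusted p = 0.396) and ASC2 minus ASC1b −1.53 (SE 0.92, adjusted p = 0.406). *Tjp1* ranged from 9.90 to 34.1 CPM over the mice and had adjusted p-values of 0.743 to 0.991 in the subtype contrasts. *Esam* and *Cldn5* stayed at or under 3.94 CPM in ASC-like cells, except for *Esam* at 15.5 CPM in mouse 5.

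Of the list genes, *Cldn15* was called in 2 subtype contrasts. It was lower in ASC2 than in ASC1a by 2.69 on the log2 scale (SE 0.31, adjusted p = 1.5e-05) and in ASC1b than in ASC1a by 1.54 (SE 0.29, edgeR quasi-likelihood test, adjusted p = 0.0185). *Ildr2* was higher in ASC2 than in ASC1a by 2.46 (SE 0.28, adjusted p = 1.3e-05). *Amot*, angiomotin, was lower in ASC2 than in ASC1b by 3.52 (SE 1.01, adjusted p = 0.0368). With *Cldn11* left out, no other gene of the 3 lists was called. Tested were 5 claudins, *Cldn11* included, 5 other membrane proteins and 17 scaffold proteins. Of all 11146 genes, 3.44% were called between ASC2 and ASC1a, 2.93% between ASC2 and ASC1b and 0.215% between ASC1b and ASC1a. The medians of the lists lay between −0.49 and 0.43 in the 3 contrasts, and those of all genes between −0.016 and −0.0026.

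To see which other genes went with *Cldn11*, male ASC-like cells were thinned to 150000 gene reads and those that kept at least 1 *Cldn11* read, 22 cells of mouse 1 and 55 of mouse 4, were compared with the other 222, 308 and 160 cells of mice 1, 4 and 8, with mouse as a block. The other gene called was *Angpt4*, an angiopoietin, higher in carriers by 2.99 on the log2 scale (SE 0.29, edgeR quasi-likelihood test, adjusted p = 0.0362), and with *Cldn11* itself, which defined the groups, this made 0.0178% of 11238 genes. *Angpt4* was also the first leading gene of cluster 9. With thinning to 50000 reads outside ribosomal RNA, 58.5% of 53 male carriers lay in that cluster, against 18.8% of male ASC-like cells. A gene of the cluster and a gene that goes with *Cldn11* cannot be told apart here. Of the members *Jam2*, *F11r* and *Tjp1*, 0 were called. None of the 11 subtype markers was called. The lowest unadjusted p-values were those of *Cxcl14*, at −1.57 (SE 0.41, unadjusted p = 0.00499, adjusted p = 0.9997), and *Fmo2*, at 0.95 (SE 0.26, unadjusted p = 0.00667, adjusted p = 0.9997). *Angpt4* was no longer called with no mouse block, with library totals alone, with thinning to 50000 reads outside ribosomal RNA or with at least 3 thinned reads asked of a carrier, and since plate 131 held many cells of 1 to 10 reads, many carriers there lay under the gap.

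With carriers defined by 30 or more reads, a limit chosen after the data were seen, 13 cells of mouse 1 and 12 of mouse 4 were compared with 231, 351 and 160 others. Then 67 genes besides *Cldn11* were called. Of all 68, 41 were higher and 27 lower, while the median over all genes tested was −0.31. The largest rises were *Ccdc3* (log2 difference 6.10, edgeR quasi-likelihood test, adjusted p = 0.0386), *Ltbp2*, a matrix protein that binds fibrillin (5.59, adjusted p = 0.00719), *Tmem221* (5.31), *Acsbg1* (5.15), *Tmem44* (5.11), *Itih2* (4.88), *Rgs2* (4.36) and *Csdc2* (4.16). The largest falls were *Smpd3*, a neutral sphingomyelinase (−5.36, adjusted p = 0.00719), *Galnt16* (−5.19), *Efhd1* (−4.81), *Alkal2* (−4.69), *Pcsk6* (−4.58), *Ccl11*, the chemokine eotaxin (−4.47), *Adamts12* (−4.45) and *Tek*, the angiopoietin receptor TIE2 (−4.39). Each of these 16 had an adjusted p of at most 0.0476. Since 25 of the 26 cells lay in cluster 9, genes that mark this cluster and genes that go with *Cldn11* inside it cannot be told apart in this comparison.

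The subtype and cell type markers of the 26 cells are given as shares of cells with at least 10 CPM, beside those of the other 742 male ASC-like cells. *Pdgfra*, *Col1a1*, *Dcn* and *Lum*, the ASC markers, were held by 100% of them. Of the ASC1b markers *Clec11a* was held by 46.2% against 19.7% and *Fmo2* by 76.9% against 58.6%, but *F3* by 65.4% against 80.7%, and *Gdf10* by 100% against 98.1%. Of the ASC2 markers *Dpp4* was held by 11.5% against 30.5% and *Cd55* by 42.3% against 63.1%, but *Arl4d* by 50% against 41.2% and *Pi16* by 88.5% against 87.1%. Of the ASC1a markers *Col15a1* was held by 73.1% against 82.5% and *Cxcl14* by 19.2% against 25.2%, but *G0s2* by 65.4% against 60.2%. The markers of one subtype thus did not all go the same way. Of the mural genes *Mylk* was held by 76.9% against 33.2%, *Acta2* by 53.8% against 33.7% and *Tagln* by 26.9% against 5.93%. *Abcc9* was held by 34.6% against 5.53%, *Kcnj8* by 23.1% against 4.04% and *Myh11* by 23.1% against 14.3%. *Rgs5* and *Higd1b* were held by 0% against 1.35% and 1.62%. The Schwann cell genes *Sox10* and *S100b* were held by 0% against 0.943% and 3.23%. Of the mesothelial genes *Upk3b*, *Krt19*, *Lrrn4* and *Upk1b* were held by 0% against 0.270% to 1.08%. *Msln* was held by 7.69% against 5.12% and *Wt1* by 69.2% against 58.8%. With 26 cells, 0% cannot be told apart from shares this small. These shares were not tested.

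The genes whose levels were most like those of *Cldn5* and *Cldn11* were sought over 18 sums of a mouse and a class (7 mice, 6 classes, 12848 genes), by Pearson's r of log2(CPM + 1). The sums of one mouse share its plates, and the classes were built from these genes, so r is a description. For *Cldn5* the closest were *Gpihbp1* (r = 0.996), *Adgrl4* (0.994), *Btnl9* (0.993), *Aqp7* (0.992) and *Icam2* (0.990), and the closest member was *Esam* (0.932). For *Cldn11* they included 9330159F19Rik (0.886), *Sult1e1* (0.868), *Pappa2* (0.849) and *Cadps* (0.821), and no member came above 0.366. *Cldn11* was near 0 in most of these sums, so its r rests on the few where it was not.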

How the data were processed

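Single cells of pgWAT from Pdgfrb-GFP mice were sequenced with Smart-seq2, a non-stranded, oligo-dT primed method. The deposited values are raw read counts per gene and cell, made by the authors. Their processing notes name bcl2fastq, STAR, Salmon and mm10, without versions in the sources used here, and they had removed poor cells. The wells were gated against doublets, per the methods, and no doublet caller was run here.

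The 8 members and the gene lists were chosen with earlier results of these data known, *Cldn5* and *Cldn11* for their levels by class, subtype and sex. The 72 spike-in rows (1.98% of reads) were left out of tests. Cells were clustered in Seurat 5.3.0 (3000 variable genes, members left out, 14 components, resolution 1.1) and named from marker lists. Counts were summed per mouse and class, subtype or sort, with at least 10 cells a sum, and tested with the quasi-likelihood test of edgeR 4.0.16 in R 4.3.3 on genes with more than 600 counts in at least 2 sums (50 thinned counts for carriers). P-values were adjusted over all genes, and a call needed an adjusted p under 0.05 and a fold over 2.6. The SE is the log2 difference divided by the root of F. Shares of cells with a read were taken after thinning to 50000 reads outside ribosomal RNA, which left 3242 cells. Shares of cells with at least 30 reads or at least 10 CPM used the deposited reads of all cells. Intervals are exact (Clopper-Pearson) 95% ones and cover counting error only. No wells held identical counts.

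Groups came from the labels. The pairing comes from the mouse label: sums of the same mouse are the same animals, so mouse was a block in the subtype and carrier tests and an alternative in the sort test. Alternatives were RLE factors, library totals alone, a filter of 10 counts, the likelihood ratio test, DESeq2 1.42.0, other classes and leaving out each mouse. Those chosen after seeing the data were the EC cluster with adipocyte genes, wells of plate 43, cells near a boundary, the carrier limit of 30 reads, the second thinning and the division by EC markers. In simulated data with 200 genes changed 8-fold, the tests recovered 96.5% for sex in ASC-like cells (11820 genes), 36.5% for sex in EC-like cells (8101 genes), 37% for the sort (12986 genes), 99% for the subtypes (11146 genes) and 63% for carriers (11238 genes). Named genes were the members, list genes that were called, the 5 genes most like *Cldn5* and *Cldn11*, all subtype markers and, for carriers, the 8 called genes with the largest fold in each direction. A few genes that these rules or lists would name are not reported here.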

Additional observations from a re-analysis of the deposited data

Results flagged for a closer look

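Among 17 groups of 4 or more mice tested for 1 mouse far from the others, 5 had one, where chance gives about 1 in 20. In ASC-like cells these were mouse 1 for *Cldn1* over all mice (35.7 CPM), mouse 5 for *Esam* (15.5 CPM) among the females and again over all mice, mouse 3 for *Jam2* among the females (103 CPM) and mouse 5 for *F11r* among the females (44.4 CPM). A single cell held 93.6% of the *Cldn1* reads of mouse 1. Of 21 pairs of effects compared between the sexes, none had the same sign in every male mouse and the opposite sign in every female mouse. This was a rule on signs and not a test.

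*Cldn11* also appeared outside ASC-like cells, in cells that entered the sums by sort but none of the ASC-like comparisons. In mouse 5, a female, 1 lymphatic EC-like cell held 774 reads, and in mouse 1 another held 126, together 2 of 22 such cells. In mouse 1, 1 pericyte-like cell held 140 reads.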

How the results depend on the processing

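The counts of members called moved with the processing. For the sort, 2 members were called, against 1 with library totals alone, 0 with a filter of 10 counts, 0 with mouse as a block and 0 to 5 with 1 mouse left out. For the subtypes, 0 members beside *Cldn11* were called, and likewise with no mouse block, in males alone and in females alone. With a filter of 10 counts *Cldn1* was called between ASC2 and ASC1a. *Cldn11* was chosen with these levels known, so it is left out of this count. For sex in ASC-like cells, 0 were called, and 0 to 1 with 1 mouse left out. For carriers, 1 gene besides *Cldn11* was called, against 0 with library totals alone, 18 with a filter of 10 counts, 43 with the likelihood ratio test, 0 with 3 thinned reads, 2 without cells with 2 EC markers, 0 with no mouse block and, chosen after seeing the data, 67 with 30 reads and 0 with thinning to 50000 reads outside ribosomal RNA. Leaving out mouse 1 or mouse 4 could not be fitted there. The causes were not tested.

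Between the sexes in EC-like cells, uncalled differences turned sign: with library totals alone *Esam* was −0.36 and *Tjp1* −0.52, with the EC cluster led by adipocyte genes kept *F11r* was 0.12, and with 1 mouse left out *Esam* ranged from −0.16 to 0.83 and *Jam2* from −0.97 to 0.049. Over all genes, DESeq2 called 595 against 264 for sex in ASC-like cells, 102 against 4 in EC-like cells and 2384 against 1337 for the sort. For the subtypes the lowest and highest counts were 203 and 482 (main 383), 133 and 416 (327), and 0 and 70 (24). *Cldn11* rests on 26 cells and the mural levels on 1 or 2 mice.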

Other observations

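Of 13 genes of endothelial adherens junctions kept beside the tight junction lists, 2 of 12 tested were higher in the CD31 sort, with a median log2 difference of 2.10 against 0.0044 over all genes tested, of which 10.3% were called. With mouse as a block no gene was called. Between the sexes 0 of 9 tested were called in ASC-like cells (2.23% of all genes) and 0 of 10 in EC-like cells (0.0494%). Between the ASC subtypes 0 of 9 were called in each contrast (0.215% to 3.44% of all genes).

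The 124 unnamed cells with EC markers whose leading genes were those of adipocytes also held *Cldn5*, at 2424 CPM in mouse 2, 394 in mouse 5 and 3531 in mouse 6/7.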
